A study of Mus musculus with 24 samples.

Results

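Transcripts of 9 matricellular genes were compared between left ventricles of mice infused with angiotensin II (ANG II) and of mice infused with saline. The genes were those of periostin (Postn), tenascin C (Tnc), the thrombospondins (Thbs1, Thbs2, Thbs3 and Thbs4), osteopontin (Spp1), SPARC (Sparc) and the SPARC-like protein hevin (Sparcl1). They were chosen by gene symbol, all 9 were found among the 14912 genes of the table, and all 9 passed the filter of a mean of at least 0.1 FPKM (fragments scaled to transcript length and library size) that left 14026 genes for testing.

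The hypertensive-LVH group held 12 left ventricles of male wild-type C57BL/6J mice that carried an osmotic mini-pump under the skin and received 1500 ng/kg/min of ANG II from it over 7 days. The control group held 12 left ventricles of mice of the same sex and strain whose pumps delivered saline over the same time. All hearts were flushed with saline before the ventricle was removed, the RNA is that of whole ventricle with all its cell types, and the age of the mice was not given in the sources used here. The extraction note in the labels names CRC cells, whereas the tissue is labelled left ventricle, and the summed level of 8 cardiomyocyte marker genes was 34712 to 59153 FPKM in the 24 samples, with no marker below 0.1 FPKM in every sample.

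Matricellular proteins are secreted into the extracellular matrix without forming its fibers, and they bind collagens, growth factors, proteases and cell-surface receptors at the same time. In the adult heart most of them are made at low levels by fibroblasts, vascular cells and macrophages, and they are known to return after injury or pressure overload. Periostin and SPARC act in collagen assembly, tenascin C loosens cell adhesion, thrombospondins activate TGF-beta or act inside the cell in the stress response of the endoplasmic reticulum, and osteopontin binds integrins and CD44.

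Ties between samples showed that the deposited values had been adjusted in 4 sets, which held samples 1 to 3, 4 to 6, 7 to 9 and 10 to 12 of each group. Their spacing was that of values from which a group difference common to all sets had been taken out, the remainder shifted and scaled set by set, and the difference put back, and some values of low genes were negative. Control samples 7 to 9 of Tnc and of Spp1 and control samples 4 to 6 of Thbs4 were negative and were set to 0 for the log2 scale, which makes the size of these 3 log2 fold changes depend on the adjustment. The log2 fold changes of the other genes rest on adjusted levels too. Control samples 4 to 6 of Thbs3 were at 0.679 to 1.40 FPKM, where the control medians of the other sets were 4.53, 5.03 and 5.59 FPKM. The spacing of the values allowed the differences within each set before the adjustment to be recovered for all 9 genes, and these are given beside the deposited values.

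In all, 6 of the 9 genes had higher transcript levels in the hypertensive-LVH group, namely Postn, Tnc, Thbs3, Thbs4, Spp1 and Sparc. In limma with Benjamini-Hochberg adjustment over all genes, 6 of 9 passed an adjusted p of 0.05 as higher and 0 as lower, where 20.9% of all genes tested were called higher and 12.6% lower. All 6 also had a log2 fold change over 0.5, as did 4.52% of all genes tested. The log2 fold changes of all 9 had a median of 0.80, and those of all genes tested a median of 0.05, with 63.8% of all genes above 0. Over all genes 2928 were called higher and 1769 lower, a split that turned to 1922 higher and 2930 lower after quantile normalization, whereas 6 of the 9 genes were higher under either scaling.

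Before the adjustment, the exact test that exchanges samples only within a set called 6 of the 9 genes higher at an adjusted p of 0.05 over 13713 genes, where 18.2% of genes were called higher. All 6 genes called by limma were among them. These 6 had a higher ANG II mean in each of the 4 sets, as did 21.8% of all genes, and in 4 of them (Postn, Tnc, Thbs4 and Spp1) every ANG II sample lay above every control sample in 3 sets, as in 5.48% of all genes. The exact test without samples 4 to 6 called 5 genes, Postn, Tnc, Thbs1, Thbs4 and Spp1, where 6.22% of all genes were called higher.

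**Figure D1:**
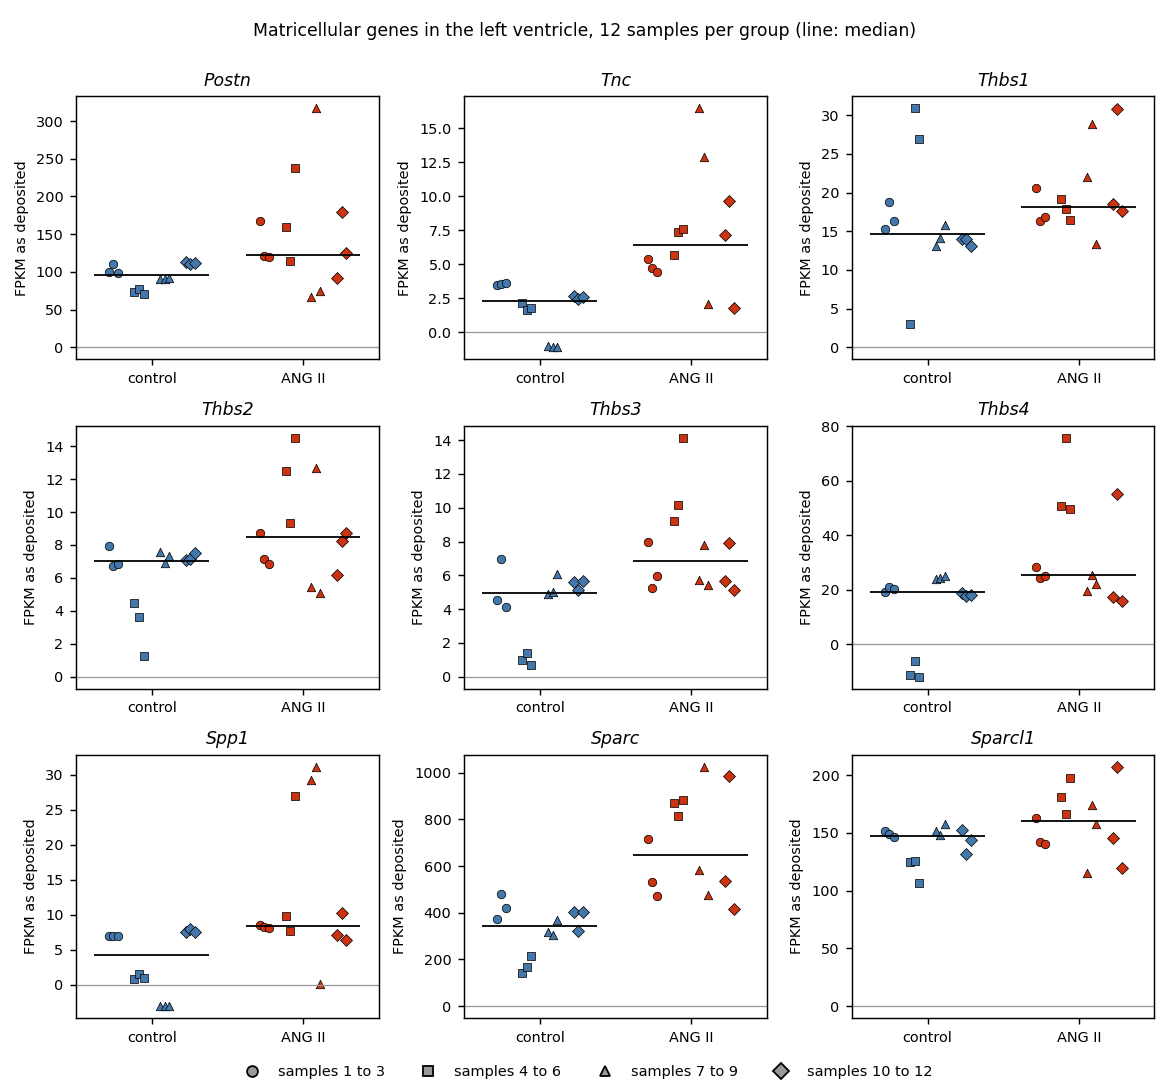
Deposited FPKM of each gene (y axis, linear) in the 12 control and 12 ANG II samples (x axis), with marker shape for the set of samples and a line at the group median. Most ANG II samples of Sparc and Tnc lie above the controls, control samples 7 to 9 of Tnc and Spp1 and 4 to 6 of Thbs4 lie below 0, and no gene has fully separate groups, as 0.271% of all genes do.

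Periostin is a fibroblast-derived protein that crosslinks collagen and is a standard marker of activated cardiac fibroblasts. Postn was measured at 70.9, 95.5 and 113 FPKM (lowest, median and highest) in the control group and at 66.1, 123 and 317 FPKM in the hypertensive-LVH group. The highest control was exceeded by 9 ANG II samples, and the other 3, samples 7, 9 and 10, lay within or below the control range. The log2 fold change was 0.51 ± 0.19 (SE, n = 12 per group, limma, adjusted p = 0.0363). In the values before the adjustment the ANG II mean exceeded the control mean by 18.6, 123, 110 and 52.4 FPKM in the 4 sets, and in the last 3 sets every ANG II sample lay above every control (exact test, adjusted p = 0.00189). Samples 7 and 9, low in the deposited values, were 49.8 and 56.2 FPKM above the control mean of their set before the adjustment. The limma call was lost when any of ANG II samples 1, 4, 6, 8 and 11 or control samples 4, 5 and 6 was left out (adjusted p from 0.055 to 0.0692), and also without samples 1 to 3 (0.0868), 10 to 12 (0.0510) or 4 to 6 (log2 fold change 0.31, 0.325). The exact test called it without samples 4 to 6 (0.0189).

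Tenascin C is a hexameric glycoprotein that is nearly absent from healthy adult myocardium and appears at sites of remodeling. In the control group Tnc was at -1.10, 2.29 and 3.60 FPKM (lowest, median and highest), and in the hypertensive-LVH group it was at 1.82, 6.43 and 16.5 FPKM. Of the ANG II samples 10 exceeded the highest control, and samples 9 and 12 did not. On the log2 scale it rose by 1.45 ± 0.32 (limma, adjusted p = 0.00118), or by 2.37 with a pseudocount of 0.1 and by 0.88 without samples 7 to 9, and it was called in both. Differences before the adjustment were 0.437, 5.69, 12.7 and 4.27 FPKM in the 4 sets (exact test, adjusted p = 0.00180). The 3 ANG II samples of the third set were spread from 1.84 to 20.4 FPKM above their controls, whose SD was 0.0473 FPKM. Tnc stayed called without samples 4 to 6 in limma (log2 fold change 1.45, adjusted p = 0.0168) and in the exact test (0.0178).

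The upstream sequences of Postn, Tnc and Spp1 are shown because these are 3 of the 4 genes whose groups were apart in 3 sets. They are the 250 bases before the RefSeq transcript start nearest to the annotated gene start, 5′ to 3′ on the strand of the gene, on build GRCm38.p6, with capitals at every match, on either strand, of 5 short motifs. These were the TATA box (TATAAA), the CCAAT box (spelled as in its name), the GC box (GGGCGG), the AP-1 motif (TGANTCA) and the SMAD motif (CAGAC), and no matches overlapped. RefSeq windows were found for 7 of the 9 genes, not for Thbs1 and Sparcl1.
Postn, chr3:54360857-54361106, + strand: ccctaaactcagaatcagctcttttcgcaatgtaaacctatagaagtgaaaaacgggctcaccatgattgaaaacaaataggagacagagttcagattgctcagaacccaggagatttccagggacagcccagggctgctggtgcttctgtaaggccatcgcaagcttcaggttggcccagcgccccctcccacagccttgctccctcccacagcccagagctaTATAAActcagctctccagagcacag
Tnc, chr4:64047016-64047265, - strand: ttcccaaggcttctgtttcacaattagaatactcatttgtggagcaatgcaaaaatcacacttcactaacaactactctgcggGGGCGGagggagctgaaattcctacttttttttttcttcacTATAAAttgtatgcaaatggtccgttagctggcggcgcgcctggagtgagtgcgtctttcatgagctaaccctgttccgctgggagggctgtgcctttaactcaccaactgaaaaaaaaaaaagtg
Spp1, chr5:104434861-104435110, + strand: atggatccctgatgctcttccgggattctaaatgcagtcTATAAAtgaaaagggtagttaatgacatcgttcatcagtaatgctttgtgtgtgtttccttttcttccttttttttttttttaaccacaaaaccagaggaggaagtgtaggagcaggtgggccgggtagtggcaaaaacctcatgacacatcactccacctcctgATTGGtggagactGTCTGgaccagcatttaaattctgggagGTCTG
The Postn window held a TATA box from 26 to 21 bases before the start and no other match. The Tnc window held a TATA box farther away, from 126 to 121 bases before the start, and a GC box from 167 to 162. The Spp1 window held a CCAAT box on the opposite strand from 46 to 42 bases, SMAD motifs on the opposite strand from 33 to 29 and from 5 to 1 bases, and a TATA box from 211 to 206 bases before the start. The window of Thbs4, the gene of the 4 that is not printed, held GC boxes and SMAD motifs but no TATA box. The windows of Thbs3 and Sparc held no TATA box either, and that of Thbs2 held one on the opposite strand. The RefSeq start used for Sparc was 3103 bases from the annotated gene start. Of 32851 RefSeq windows of the same length, 12.4% held a TATA box, 33.8% a CCAAT box, 32.7% a GC box, 42.2% a SMAD motif and 6.75% an AP-1 motif, and the AP-1 motif was in none of the 7 windows.

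Before the adjustment the largest increase fell in samples 4 to 6 for Thbs2, Thbs3 and Thbs4, and in samples 10 to 12 for Thbs1. Only Thbs3 and Thbs4 passed the test over all samples. Thrombospondin 4 is the form most associated with stressed myocardium and tendon. Thbs4 was measured at -12.0, 19.0 and 24.9 FPKM in the control group and at 15.9, 25.2 and 75.8 FPKM in the hypertensive-LVH group (lowest, median and highest). Above the highest control were 7 ANG II samples, led by samples 4, 5, 6 and 11. The log2 fold change was 1.63 ± 0.58 (limma, adjusted p = 0.0317), or 2.46 with a pseudocount of 0.1 (0.0505). It was 5.87 in samples 4 to 6 but 0.34, -0.14 and 0.44 in the other sets. The recovered differences before the adjustment were 1.31, 64.6, 7.91 and 14.2 FPKM, with the groups apart in the last 3 sets (exact test, adjusted p = 0.00203). The negative log2 fold change of samples 7 to 9 in the deposited data stood beside an ANG II excess of 5.70 to 10.3 FPKM in each of the 3 samples before the adjustment. Leaving out any of ANG II samples 5, 6 and 11 or control samples 4, 5 and 6 gave limma adjusted p from 0.0504 to 0.0571, and leaving out samples 4 to 6 altogether gave a log2 fold change of 0.21 (adjusted p = 0.376; exact test, 0.0206).

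Thrombospondin 3 is a pentameric thrombospondin known from bone and from hypertrophic hearts. Thbs3 was at 0.679, 4.98 and 6.94 FPKM in the control group and at 5.15, 6.87 and 14.1 FPKM in the hypertensive-LVH group. All 12 ANG II samples were above the control median and 6 were above the highest control. Its log2 fold change was 0.80 ± 0.24 (limma, adjusted p = 0.0118). It differed by 0.460, 11.7, 2.25 and 1.14 FPKM in the 4 sets before the adjustment (exact test, adjusted p = 0.0140). Neither test called it without samples 4 to 6 (log2 fold change 0.20, limma adjusted p = 0.144; exact test, 0.152). Thbs3 (chromosome 3, 89215180 to 89226837, build GRCm38) lies within the annotated span of Mtx1 (89209081 to 89227088) on the opposite strand, and whether reads were counted by strand is not given in the sources used here, so reads of the overlap cannot be told apart. Mtx1, a mitochondrial import protein, had a log2 fold change of -0.06 ± 0.07 (limma, adjusted p = 0.535). Thbs1, Tnc, Spp1 and Sparcl1 each overlap an annotated gene that is not protein-coding and was not analysed here.

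Thrombospondin 1, an activator of latent TGF-beta stored in platelets, did not pass the test over all samples. Thbs1 was at 3.08, 14.7 and 30.9 FPKM in the control group and at 13.4, 18.2 and 30.7 FPKM in the hypertensive-LVH group. No ANG II sample exceeded the highest control, although 11 of 12 exceeded the control median. The log2 fold change was 0.37 ± 0.21 (95% interval -0.07 to 0.81, limma, adjusted p = 0.179), and 0.20 without control sample 4 (adjusted p = 0.304). Before the adjustment the differences were 0.690, -6.39, 9.78 and 9.91 FPKM (exact test, adjusted p = 0.415). The negative difference belonged to samples 4 to 6, where control 4 lay 21.4 FPKM below and controls 5 and 6 lay 13.2 and 8.24 FPKM above their own mean. Without these samples Thbs1 passed limma (log2 fold change 0.40, adjusted p = 0.0286) and the exact test (difference 6.79 FPKM, adjusted p = 0.0219), with the groups apart in samples 7 to 9 and 10 to 12.

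Thrombospondin 2, an inhibitor of angiogenesis that clears matrix proteases, also missed the threshold. Thbs2 was at 1.26, 7.01 and 7.95 FPKM in the control group and at 5.07, 8.48 and 14.5 FPKM in the hypertensive-LVH group. There were 7 ANG II samples above the highest control, while samples 7 and 9 were below 9 of the controls. The log2 fold change was 0.46 ± 0.20 (95% interval 0.06 to 0.87, limma, adjusted p = 0.0686), and it passed without ANG II sample 7 (0.0474) or 9 (0.0414) and without samples 7 to 9 (0.0472). Before the adjustment the differences were -0.393, 8.45, 1.53 and 1.31 FPKM (exact test, adjusted p = 0.0530), and without samples 4 to 6 the mean difference was 0.817 FPKM (adjusted p = 0.516) and the log2 fold change 0.04.

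**Figure D2:**
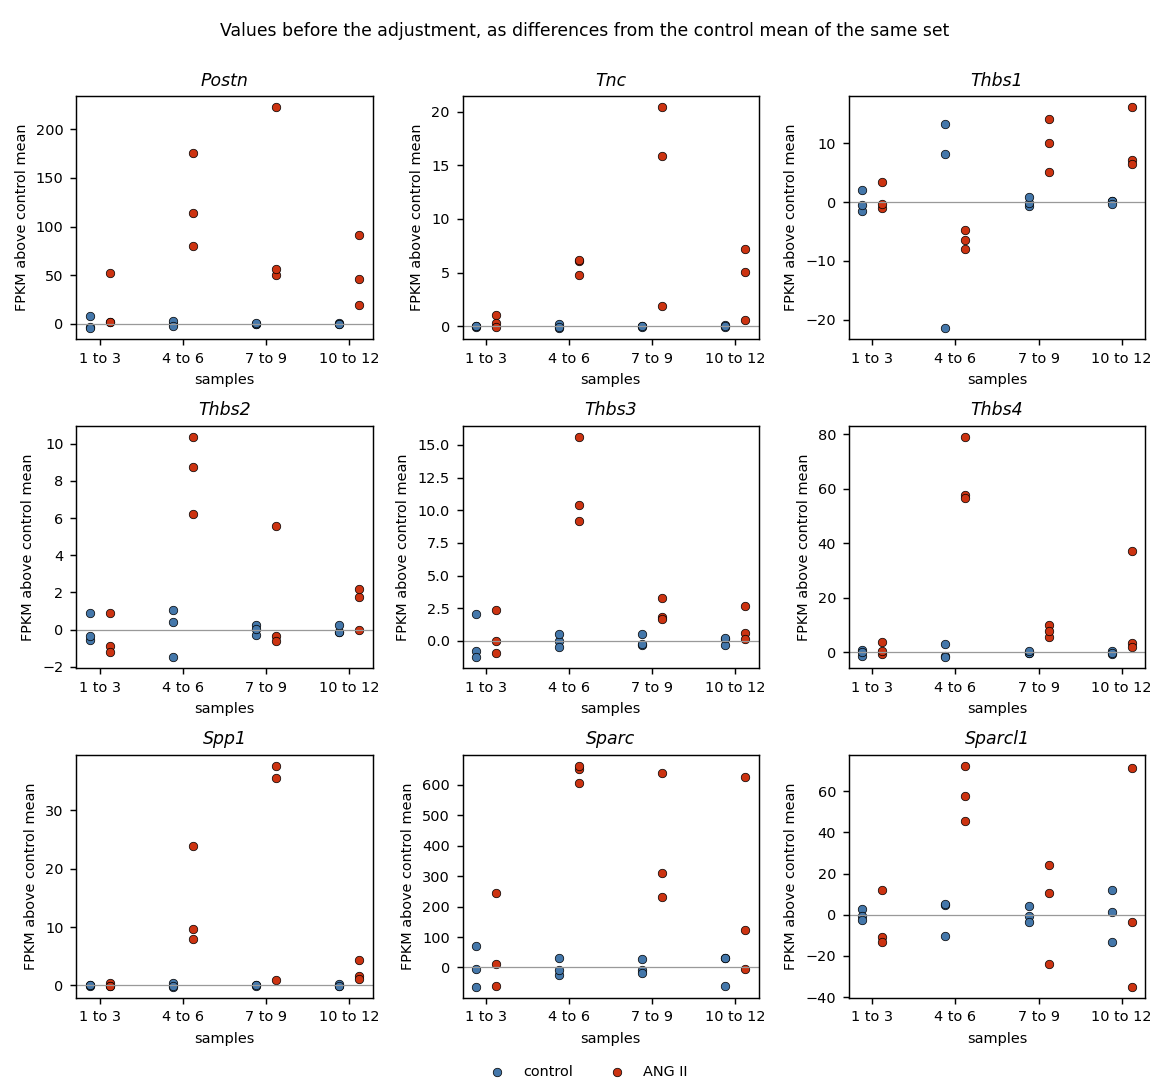
Values before the adjustment, as FPKM above the control mean of the same set (y axis), for the 3 control and 3 ANG II samples of each set (x axis). Controls spread less than ANG II samples in samples 7 to 9 and 10 to 12 for all 9 genes, ANG II samples 4 to 6 stand highest for Thbs2, Thbs3 and Thbs4, and Thbs1 has ANG II samples below 2 of the 3 controls in samples 4 to 6.

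Osteopontin is a secreted ligand of integrins and CD44 that macrophages and activated fibroblasts make. Spp1 was measured at -3.01, 4.23 and 7.94 FPKM in the control group and at 0.0891, 8.42 and 31.1 FPKM in the hypertensive-LVH group. In 8 ANG II samples the level exceeded the highest control, and samples 6, 7 and 8 stood apart from the rest at 27.0, 29.3 and 31.1 FPKM. Spp1 rose by 1.58 ± 0.51 on the log2 scale (limma, adjusted p = 0.0195), or by 2.38 with a pseudocount of 0.1 and by 0.99 without samples 7 to 9, and it was called in both. Set by set, the differences before the adjustment were 0.0733, 13.9, 24.7 and 2.32 FPKM, with the groups apart in the last 3 sets (exact test, adjusted p = 0.00251). ANG II sample 9, the lowest of its group in the deposited values, was 0.940 FPKM above its controls before the adjustment, while samples 7 and 8 were 35.5 and 37.6 FPKM above them. Limma did not call Spp1 without samples 4 to 6 (log2 fold change 1.19, adjusted p = 0.190), and the exact test did (0.0267).

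SPARC is a collagen-binding glycoprotein that governs collagen fibril assembly. Sparc, the most abundant of the 9 transcripts, was at 142, 344 and 481 FPKM in the control group and at 418, 649 and 1025 FPKM in the hypertensive-LVH group. All 12 ANG II samples exceeded the control median, 9 exceeded the highest control, and 10 of the controls lay below every ANG II sample. Sparc rose by 1.10 ± 0.19 on the log2 scale, with the smallest adjusted p of the 9 genes (limma, 1.60e-04). ANG II means exceeded control means by 64.7, 639, 393 and 249 FPKM before the adjustment (exact test, adjusted p = 0.00492). Without samples 4 to 6 the log2 fold change was 0.70 (limma, adjusted p = 0.00438) and the exact test gave 235 FPKM (adjusted p = 0.0531).

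Hevin, the closest relative of SPARC, is an anti-adhesive protein found in blood vessels and brain. Sparcl1 was at 107, 148 and 158 FPKM in the control group and at 116, 160 and 207 FPKM in the hypertensive-LVH group. A total of 7 ANG II samples were above the highest control, and 5 were below the control median. The log2 fold change was 0.16 ± 0.09 (95% interval -0.01 to 0.34, limma, adjusted p = 0.138). The 4 sets differed by -3.94, 58.4, 3.54 and 10.9 FPKM before the adjustment (exact test, adjusted p = 0.207), and without samples 4 to 6 the log2 fold change was 0.02. Sparcl1 and Spp1 both lie on chromosome 5 (build GRCm38, GENCODE vM21), 321384 bases apart. Sparcl1 is at 104079111 to 104113733 on the minus strand and Spp1 at 104435118 to 104441050 on the plus strand.

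The size of the ANG II difference depended on the set of samples for some genes. In limma with group, set and their interaction, the difference varied between sets for 5 of the 9 genes at an adjusted p of 0.05, Tnc, Thbs2, Thbs3, Thbs4 and Sparc, where 7.49% of all genes tested did. It was smallest in samples 1 to 3 before the adjustment for 8 of the 9 genes, which was also so for 44.7% of all genes and for 66.6% of the genes called higher. The largest difference before the adjustment fell in samples 4 to 6 for 6 genes (56.2% of all genes), in samples 7 to 9 for Tnc and Spp1, and in samples 10 to 12 for Thbs1. In no gene were the groups apart in samples 1 to 3 (4.57% of all genes), whereas they were apart and higher for 8 genes in samples 4 to 6 (41.1%), for 7 in samples 7 to 9 (19.1%) and for 5 in samples 10 to 12 (13.1%). When samples 4 to 6 were left out, the variation between sets passed the limma test for 0 of the 9 genes (2 at an unadjusted p of 0.05). For Tnc the F statistic was 9.30 without samples 4 to 6 (limma, adjusted p = 0.404) and 7.61 with all sets. These F statistics rest on different numbers of interaction terms and are not on the same scale.

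**Figure D3:**
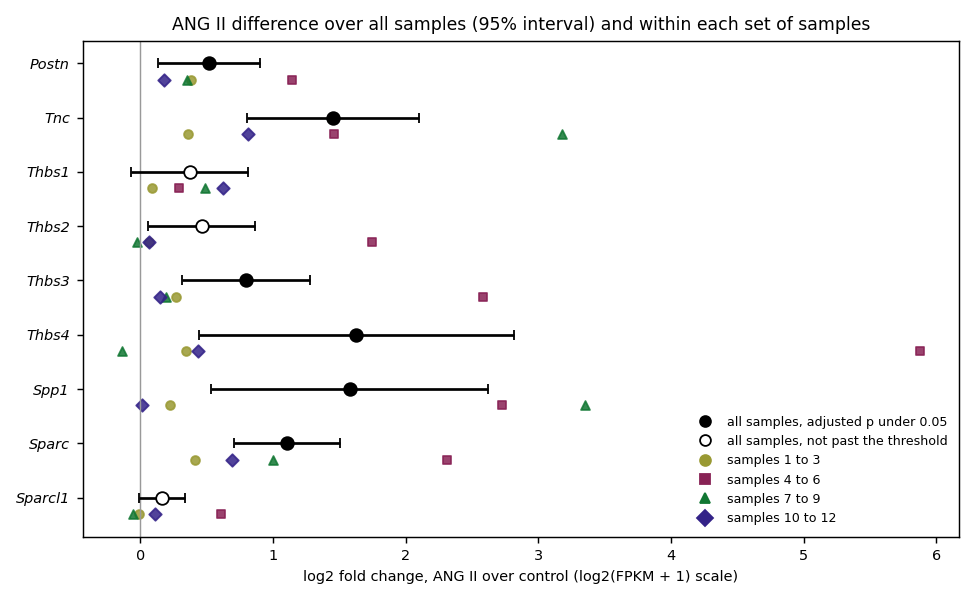
Log2 fold change of ANG II over control (x axis, log2(FPKM + 1) scale) for each gene, with black circles and 95% intervals for all samples (filled where the adjusted p is under 0.05) and coloured markers below them for each set of 3 against 3. The marker of samples 4 to 6 lies farthest right for 6 genes and reaches 5.87 for Thbs4, and that of samples 7 to 9 reaches 3.18 for Tnc and 3.35 for Spp1.

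For most of the 9 genes the ANG II samples differed more among themselves, in FPKM, than the controls did. In the recovered values the SD of the 3 ANG II samples exceeded that of the 3 controls for 8, 7, 9 and 9 of the 9 genes in the 4 sets, against 23.0%, 57.9%, 76.2% and 89.0% of 7999 genes with a mean of at least 5 FPKM. In samples 7 to 9 and 10 to 12 a larger ANG II SD was therefore common to most genes. Over the 7999 genes the median SD, as a percent of the mean, was 17.5%, 8.37%, 4.52% and 5.09% in the controls of the 4 sets. In the ANG II samples it was 8.79%, 9.88%, 8.72% and 15.4%. Whether the SDs of the 9 genes differ relative to their means was not tested. For Postn in samples 7 to 9 the SD was 97.9 FPKM in the ANG II samples and 0.705 FPKM in the controls. For Spp1 in the same set it was 20.6 FPKM against 0.0346 FPKM. In the deposited values, whose levels across sets rest on the adjustment, ANG II sample 8 was the highest of its group for Postn, Spp1 and Sparc, and sample 11 for Thbs1 and Sparcl1. Sample 7, the lowest of the 12 deposited values for Postn and Sparcl1, was the highest for Tnc and the next to highest for Spp1.

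Relations between the genes were computed across the 12 ANG II samples as deviations of log2(FPKM + 1) from the mean of each set, over 36 pairs, with values permuted within sets. The strongest was between Postn and Thbs2 (Pearson's r = 0.961, permutation p = 0.00540, adjusted p = 0.0926, Spearman's rho = 0.972, permutation p = 0.00540, adjusted p = 0.167), and r was 0.913 after the 2 samples with the most extreme Postn values were removed. Thbs1 and Sparc followed (r = 0.911, permutation p = 0.00694, adjusted p = 0.0926, rho = 0.832, permutation p = 0.0154, adjusted p = 0.185, and r = 0.885 without the 2 farthest samples). Tnc and Spp1 had r = 0.812 (permutation p = 0.0239, adjusted p = 0.131), rho = 0.797 (permutation p = 0.00926, adjusted p = 0.167) and r = 0.694 without the 2 farthest samples. No pair of the 36 passed an adjusted p of 0.05. These values share libraries and the adjustment of each set.

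In abundance the controls had a fixed order at the top and an unsettled one at the bottom. The order is that of the deposited values, whose levels across sets rest on the adjustment. By median FPKM, which accounts for transcript length, the controls ranked Sparc (344), Sparcl1 (148), Postn (95.5), Thbs4 (19.0), Thbs1 (14.7), Thbs2 (7.01), Thbs3 (4.98), Spp1 (4.23) and Tnc (2.29). Sparc was above Sparcl1, Sparcl1 above Postn, and Postn above Thbs4 in all 12 controls, while Thbs3 was above Spp1 in 4 of 12 and Spp1 above Tnc in 6 of 12. In control samples 7 to 9 the values of both Spp1 and Tnc were negative (medians -2.96 and -1.04 FPKM). Their order in those samples is therefore not one of abundance. The cases of Thbs3 above Spp1 include those samples. In the hypertensive-LVH group the order was the same down to Thbs2 (8.48), and Spp1 (8.42) came before Thbs3 (6.87) and Tnc (6.43). There Sparcl1 was above Postn in 8 of 12 samples, and Thbs2 above Spp1 in 5 of 12.

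For each gene called, the 3 genes with the most similar profile were sought among 11458 genes with a mean of at least 1 FPKM, by the smallest mean absolute gap between standardised log2(FPKM + 1) values over the 24 samples. Cilp, Ltbp2 and Comp were nearest to Thbs4, with gaps of 0.0572, 0.0936 and 0.114 SD, the smallest found. All 3 share with Thbs4 the 3 control samples whose negative values were set to 0, as Nmrk2 and Sprr1a do with Tnc and Plac8 and Timp1 with Spp1, so these genes have a floor in common in those samples. Cilp encodes an intermediate-layer protein of cartilage and matrix, Ltbp2 a latent TGF-beta binding protein, and Comp the cartilage oligomeric thrombospondin. Col14a1, Antxr1 and Ecm1 were nearest to Thbs3 (0.130, 0.142 and 0.152 SD), and Vim, Cyb5r3 and Loxl2 to Sparc (0.175, 0.188 and 0.192 SD). Aspn, Rtn4 and Anxa1 were nearest to Postn (0.232, 0.270 and 0.322 SD), Nmrk2, Ms4a7 and Sprr1a to Tnc (0.221, 0.247 and 0.279 SD), and Ccr2, Plac8 and Timp1 to Spp1 (0.267, 0.295 and 0.321 SD). Among the 9 genes themselves the closest pairs were Thbs3 with Thbs4 (0.239 SD), Thbs3 with Sparc (0.372 SD) and Tnc with Spp1 (0.383 SD).

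Of the related matricellular genes, 12 of 21 listed were tested, and 6 rose and 0 fell, and the median over the list was 0.58 on the log2 scale. For this list and those below, limma called 20.9% of all genes tested higher and 12.6% lower. The exact test called 18.2% of all genes higher, and 6.22% without samples 4 to 6. The 3 called genes with the largest log2 fold change were Ctgf (1.63 ± 0.50, limma, adjusted p = 0.0142), Wisp2 (1.61 ± 0.43, 0.00561) and Cyr61 (0.90 ± 0.32, 0.0311), which encode CCN proteins that tie growth factors to integrins. Nov and Wisp1 of the same family were at 0.65 ± 0.29 (adjusted p = 0.0836) and 0.00 ± 0.14 (0.988). Negative values that were set to 0 numbered 1 for Ctgf and 3 for Wisp2. Before the adjustment 4 of the 12 were called higher, Ctgf (adjusted p = 0.0195) and Wisp2 (0.00773) among them, while Cyr61 had an adjusted p of 0.103. Without samples 4 to 6 the exact test called 1 of the 12, Cyr61 (0.0494), and Ctgf (0.115) and Wisp2 (0.0858) were lost. In samples 1 to 3 Ctgf differed by -9.54 FPKM. Comp missed the threshold at 1.35 ± 0.58 (adjusted p = 0.0742). Limma called 2 of the 12 without samples 4 to 6.

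Of the receptors that bind these ligands 10 of 18 were higher and 0 lower, with a list median of 0.22 on the log2 scale. Over all genes tested limma called 20.9% higher, and the exact test 18.2%, or 6.22% without samples 4 to 6. Itgb3, the beta chain of the vitronectin receptor that binds osteopontin and periostin, rose by 0.97 ± 0.12 (limma, adjusted p = 3.94e-06). Cd44, the hyaluronan and osteopontin receptor, rose by 0.91 ± 0.16 (1.12e-04), and Itga5, the fibronectin receptor chain, by 0.64 ± 0.08 (3.43e-06). Before the adjustment 12 of the 18 were called higher, and those 3 differed by means of 1.76, 4.30 and 15.3 FPKM with adjusted p of 0.00210, 0.00726 and 0.00189. Without samples 4 to 6 limma called 5 of the 18 and the exact test 6, and Cd44 was lost in the latter (0.0811).

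Among 17 matrix partners and proteases, 15 rose and 0 fell, and the list median was 1.03 on the log2 scale. The shares of all genes called higher were 20.9% by limma and 18.2% by the exact test, or 6.22% without samples 4 to 6. The fibrillar collagen genes led, Col1a1 at 2.77 ± 0.88 (limma, adjusted p = 0.0180), Col3a1 at 2.63 ± 0.98 (0.0418) and Col1a2 at 2.49 ± 0.87 (0.0296), each with 3 negative control values set to 0. Their control medians were 120, 239 and 118 FPKM and their ANG II medians 265, 373 and 206 FPKM. Before the adjustment 14 of the 17 were called higher, and Col1a1 differed by 14.5, 499, 203 and 89.0 FPKM in the 4 sets (exact test, adjusted p = 0.00397). Limma and the exact test each called 7 of the 17 without samples 4 to 6, where Col1a2 had an exact adjusted p of 0.0503.

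**Figure D4:**
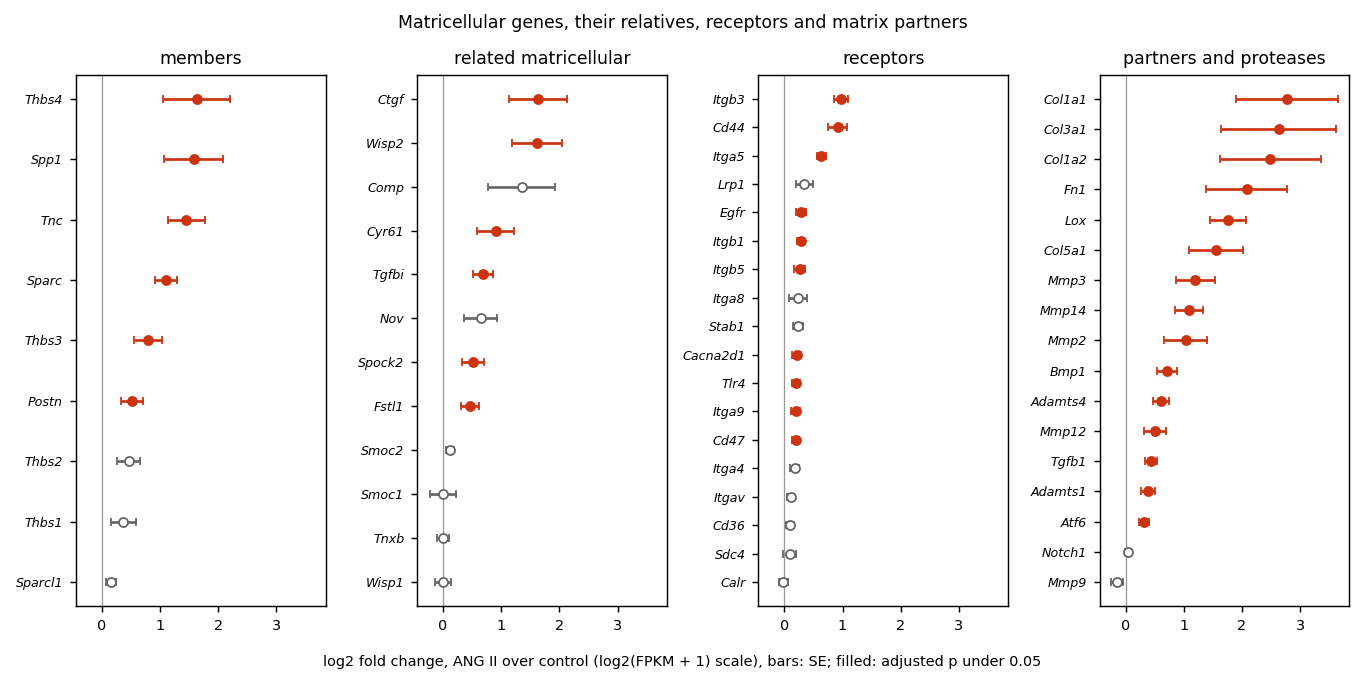
Log2 fold change of ANG II over control with its SE (x axis) for the 9 genes and for tested genes of 3 related lists (y axis, sorted), filled red where the adjusted p is under 0.05. Called genes are all on the right of 0, and the collagens Col1a1, Col3a1 and Col1a2 reach 2.77, 2.63 and 2.49.

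Marker genes of other cells moved along with these transcripts, and in whole ventricle a change in the number of cells of a type cannot be told apart from a change in the RNA of each cell. Marker counts are limma calls unless another test is named, beside 20.9% of all genes tested called higher and 12.6% lower. Of the activated fibroblast markers 5 of 6 were higher, and their summed level ran from 114 to 266 FPKM in the hypertensive-LVH group against 69.8 to 178 FPKM in the control group. Macrophage markers were higher in 8 of 8 (339 to 1061 against 265 to 610 FPKM; by the exact test 8 of 8, and 0 of 8 without samples 4 to 6), and monocyte markers in 2 of 4 (2.89 to 32.2 against 0.385 to 7.76 FPKM). General fibroblast markers were mixed, with 3 of 8 higher and 1 lower (894 to 1869 against 701 to 1272 FPKM). Cardiomyocyte markers were lower in 5 of 8 (34712 to 50814 against 45821 to 59153 FPKM), and red blood cell markers were higher in 4 of 4 (741 to 6155 against 85.8 to 2811 FPKM). Without samples 4 to 6 the exact test called 3 activated fibroblast, 2 general fibroblast (Mfap5 higher, Gsn lower) and 2 monocyte markers. It called 1 cardiomyocyte marker, Tnni3, and 1 red blood cell marker, Alas2. Platelet markers, which bear on Thbs1, were called in 0 of 4 by limma and in 1 of 4, Itga2b, by the exact test (10.9 to 51.8 against 20.2 to 34.4 FPKM), and cartilage and tendon markers, which bear on Thbs4, were higher in 2 of 6 (9.65 to 32.2 against 3.56 to 17.1 FPKM). Their part in the results above was not tested. Endothelial markers were called in 2 of 6 (1 higher, 1 lower), smooth muscle and pericyte markers in 4 of 7 (2 and 2), skeletal muscle markers in 3 of 3 (1 and 2), and markers of mesothelium, atrial myocytes, adipocytes and Schwann cells in 0 of 4, 0 of 3, 0 of 3 and 0 of 3. By the exact test the calls were 1 endothelial, 1 smooth muscle and pericyte, and 2 skeletal muscle markers.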

How the data were processed

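RNA of 24 left ventricles, 12 per group as the labels give them, was enriched with oligo(dT) beads and sequenced in pairs by the authors, whose processing notes name HISAT, Bowtie2 and RSEM without versions. The deposited table was given as FPKM, but 2741 of its values (0.766%) are negative, so its unit was treated as a score on the FPKM scale that the authors had adjusted further. How the adjustment was made is not given in the sources used here. Samples were joined into 4 sets where at least 100 genes were tied. Depth per sample is unknown; the deposited values of a sample sum to between 460715 and 567727.

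After negatives had been replaced by 0, limma 3.58.1 in R 4.3.3 tested log2(FPKM + 1) with an intensity trend. Adjusted p are Benjamini-Hochberg values over the 14026 genes whose mean reached 0.1. The added 1 shrinks the fold change of low genes. Where negatives were set to 0, as for Tnc, Thbs4 and Spp1, the size of the fold change depends on the adjustment. Variation between sets was tested as the interaction of group and set. Values before the adjustment were steps of 0.01 FPKM and were recovered within sets, without the offset of a set, for 14237 genes. Of these, 13713 passed the filter and were tested with all 160000 relabelings within sets (two-sided), a test chosen after the data were examined, run in Python 3.11.15 (numpy 2.4.6; pandas 2.3.3). The steps were tested on simulated data. Deviations of samples sharing a number correlated at -0.557 to -0.00109, with a median of -0.219. For other numbers of the same set the median was -0.151. The values had been adjusted set by set, so these correlations cannot tell whether samples sharing a number were pairs.

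The 9 genes and the lists were chosen with earlier results of these data known. Named genes were the 9, up to 3 with the largest increase and 3 with the largest decrease called in each list, and the 3 nearest profiles of each called gene. Positions are from GENCODE vM21, and upstream sequences are from RefSeq. Alternatives covered the pseudocount, filter, scaling, trend, test, block, set term, and left-out samples and sets. No columns of the authors' own comparisons were used.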

Additional observations from a re-analysis of the deposited data

Results flagged for a closer look

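The ANG II difference of 5 genes varied between the 4 sets of samples (limma, interaction of group and set, F test with 3 degrees of freedom, adjusted over all genes). For Thbs4 the adjusted p was 2.82e-09, with log2 fold changes of 0.34, 5.87, -0.14 and 0.44 in samples 1 to 3, 4 to 6, 7 to 9 and 10 to 12. For Thbs3 it was 1.11e-05 (0.27, 2.58, 0.20 and 0.15), for Sparc 0.0127 (0.41, 2.31, 1.00 and 0.69), and for Thbs2 0.0139 (0.07, 1.74, -0.03 and 0.07). For Tnc it was 0.0296, with the largest difference in another set (0.36, 1.46, 3.18 and 0.81). The sets are those in which the values had been adjusted, and control values of Thbs4 in samples 4 to 6 and of Tnc in samples 7 to 9 had been set to 0. Those of Thbs3 in samples 4 to 6 were at 0.679 to 1.40 FPKM as deposited. Before the adjustment Thbs4, Thbs3, Sparc and Thbs2 also differed most in samples 4 to 6, by 64.6, 11.7, 639 and 8.45 FPKM, and Tnc in samples 7 to 9, by 12.7 FPKM.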

How the results depend on the processing

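The 6 genes called of 9 were 5 with a pseudocount of 0.1 (Thbs4 lost, adjusted p = 0.0505) and with the set as a term (Postn lost, 0.0525), and 6 under quantile or median-ratio scaling, with the filter dropped or raised to 1, without the trend, and by the Wilcoxon rank-sum test. Leaving out 1 sample gave 4 to 7. In the log2 permutation test within sets 7 passed at an unadjusted p of 0.05, Thbs2 among them (0.0432). With the replicate number as a block, limma called 2824 genes, 3 of the 9, 3 related genes, 5 receptors and 9 partners. Of the 12 ANG II samples 0 correlated best with their own number, and whether the numbers pair the samples is not known. Without samples 4 to 6 it called 2810 genes (1177 higher), 3 of the 9 (Tnc, Thbs1 and Sparc), 2 related genes, 5 receptors and 7 partners, and 0 of the 9 varied between sets (2 unadjusted). Alone, samples 1 to 3 gave 0 genes (1236 at an unadjusted p of 0.05), 0 of the 9 (3 unadjusted) and 0 in each list (0 related genes, 4 receptors and 7 partners unadjusted). Samples 7 to 9 alone gave 685 genes, 1 of the 9, 3 related genes, 2 receptors and 1 partner. Samples 10 to 12 alone gave 39 genes, 0 of the 9 (2 unadjusted), 0 related genes (3 unadjusted), 1 receptor and 0 partners (6 unadjusted). Samples 4 to 6 alone gave 3815 genes (3108 higher) and 8 of the 9. The direction turned in single sets for Sparcl1 (-0.0084 in samples 1 to 3 and -0.053 in samples 7 to 9), Thbs2 (-0.026) and Thbs4 (-0.14, both samples 7 to 9). The Wilcoxon test called 3 related genes. The causes were not tested.

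Fragment counts behind low values such as those of Tnc are unknown. Differences before the adjustment are known only within sets, so whether control or ANG II samples of a set stand apart cannot be told. The split of all calls moved with scaling, to 2488 higher and 2164 lower under median ratios, where all genes had a median of 0.03 on the log2 scale (-0.02 under quantile normalization).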
